A study of Mus musculus with 12 samples.

Results

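The cytosolic ribosomal protein genes are the genes of the proteins that, with the ribosomal RNAs, make up the large and the small subunit of the ribosome outside mitochondria. They were taken by symbol, as every mouse gene named Rpl or Rps and a number, with or without the ending a, x, l, al or l1, together with Rplp0, Rplp1, Rplp2 and Rpsa, and without rows named as pseudogenes or kinases. The rule gave 86 of the 47069 genes in the table, 53 of the large and 33 of the small subunit. It passes over 5 subunit genes that are spelled otherwise, such as Rps3a1 and Rack1, and 3 of its members (Rpl6l, Rps12l1 and Rps4l) are annotated as processed pseudogenes in GENCODE. Reads were counted in 12 libraries of liver cancer organoid cells from C57BL/6 mice of the genotype LGR5-DTRGFP+, whose Lgr5 promoter drives GFP together with the receptor for diphtheria toxin. The organoids came from tumours induced by diethylnitrosamine, and cells were sorted by GFP into LGR5+ and LGR5- fractions. Each fraction was sequenced with and without 5-FU (5-fluorouracil), which gives 4 groups of 3 libraries. The drug blocks thymidylate synthesis and, once built into RNA, disturbs the processing of ribosomal RNA. A concentration of the drug is known for organoid culture but is not tied to these cells in the sources used here. The number of organoid lines or animals behind the replicates was not given in the sources used here, so the tests measure the spread between these libraries, which may be technical.

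Ribosomal protein genes are transcribed at a high rate in dividing cells, and most of their mRNAs start with a run of pyrimidines, the terminal oligopyrimidine (TOP) tract, through which mTOR controls their translation. When assembly of ribosomes is disturbed, free Rpl5 and Rpl11 proteins bind MDM2, the ubiquitin ligase that removes p53, and p53 accumulates. A few members have paralogs that are used in other tissues or under stress. Rpl3l and Rpl10l are known from muscle and testis, Rps27l is a p53 target gene, and Rpl22l1 is the paralog of Rpl22.

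Sequence around the start sites was searched for runs of pyrimidines. A run found there need not be the first bases of the mRNA, so the counts are not counts of TOP tracts. RefSeq windows on GRCm38.p6 were at hand for 63 of the 86 members. A run of at least 6 C or T that begins with C, on the sense strand between 15 bases before and 50 bases after the annotated start, was found for 53 of the 63 members (84.1%) and for 45.8% of 27025 genes of the table of windows. The core motif CGGAAG, which ETS-family factors bind, stood on either strand between 250 bases before and 50 bases after the start for 42 of the 63 members (66.7%) and for 18.8% of all genes. The windows below hold 15 bases before the RefSeq start and 15 from it on, 5′ to 3′, with the runs of C or T in capitals. The RefSeq starts lie 0 to 91 bases from the GENCODE starts of these genes. They are shown for Rps27l and Rps27 and for Rpl22l1 and Rpl22, pairs whose ratio shifted after 5-FU, for 5 other members that fell, and for Rpl10, which fell and has no such run there.
Rps27l (chr9:66946071-66946100, plus strand): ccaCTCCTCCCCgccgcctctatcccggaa
Rps27 (chr3:90213634-90213663, minus strand): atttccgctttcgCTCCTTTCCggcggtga
Rpl22l1 (chr3:28805493-28805522, plus strand): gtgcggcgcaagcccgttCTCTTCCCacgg
Rpl22 (chr4:152325711-152325740, plus strand): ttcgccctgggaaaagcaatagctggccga
Rpl7a (chr2:26910792-26910821, plus strand): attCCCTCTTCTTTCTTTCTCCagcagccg
Rps9 (chr7:3704026-3704055, plus strand): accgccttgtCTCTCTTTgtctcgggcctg
Rpl14 (chr9:120571502-120571531, plus strand): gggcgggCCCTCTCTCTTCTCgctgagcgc
Rpl27a (chr7:109519180-109519209, plus strand): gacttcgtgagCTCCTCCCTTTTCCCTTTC
Rpl28 (chr7:4792950-4792979, plus strand): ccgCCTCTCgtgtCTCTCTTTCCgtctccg
Rpl10 (chrX:74270801-74270830, plus strand): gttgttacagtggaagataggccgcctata
The run is missing from the window of Rpl22 as well, and from that of Rpl5, which fell too. A match, or its absence, describes these letters only, and the run printed for Rps27l lies before the annotated start.

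Libraries held 13750591 to 19323514 counted reads, so that 3 reads, the limit a count of 0 allows, were 0.165 to 0.220 CPM (read counts scaled to a common library size). Mitochondrially encoded genes took 1.47% to 3.08% of the reads in 10 libraries and 6.93% and 6.44% in the LGR5- replicate 3 libraries, untreated and 5-FU-treated. Lgr5 itself was at 18.3 to 36.0 CPM and did not separate the sorted fractions (log2 fold change -0.17 ± 0.23 in untreated and 0.11 ± 0.23 in 5-FU-treated cells, LGR5+ against LGR5-, ± SE, adjusted p = 1 and 0.842, edgeR). Of 9 hepatocyte markers, 2 (Afp and Alb) had reads in every library and 3 (Cyp3a11, Fgb and Serpina1a) had none in any, and their sum was 10.5 to 22.4 CPM in untreated and 26.0 to 56.4 CPM in 5-FU-treated libraries. The 7 cholangiocyte markers summed to 2388 to 3112 CPM in untreated, 3425 to 7786 CPM in 5-FU-treated LGR5- and 7993 to 11895 CPM in 5-FU-treated LGR5+ cells. The 6 markers of alveolar epithelium all had reads in every library and summed to 3071 to 17521 CPM, mostly from Sftpc. Sftpc was at 16445, 17335 and 3440 CPM in untreated LGR5- and 15665, 5764 and 4891 CPM in untreated LGR5+ cells. After 5-FU it was at 2619 to 6037 CPM. Sftpd, Lamp3 and Sftpa1 were higher in every treated than in every untreated library, while Sftpc, Sftpb and Nkx2-1 overlapped. Leukocyte markers summed to 12.3 to 39.6 CPM in untreated and 72.9 to 129.9 CPM in 5-FU-treated libraries, nearly all from Lyz2 and Cd68, while Cd3e had no reads and Ptprc, the gene of CD45, by which the sort left out leukocytes, lay at 0.165 to 2.02 CPM. Erythroid markers, nearly all Hba-a1, summed to 0.182 to 0.603 CPM in untreated and 20.96 to 52.2 CPM in treated libraries. Fibroblast and endothelial markers summed to 2.35 to 8.50 and 1.67 to 4.06 CPM. The part of these differences in the results on ribosomal protein genes was not tested.

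Ribosomal protein genes took a smaller share of the reads after 5-FU. They held 8.92%, 9.25% and 10.6% of counted reads in the untreated LGR5- libraries, 8.62%, 9.97% and 8.14% in untreated LGR5+, 7.99%, 6.10% and 8.85% in 5-FU-treated LGR5- and 6.54%, 5.24% and 6.26% in 5-FU-treated LGR5+. All 3 5-FU-treated LGR5+ libraries lay below all 3 untreated LGR5+ libraries, with group means of 6.01% ± 0.68 and 8.91% ± 0.94 (SD, n = 3). In LGR5- cells the means were 7.64% ± 1.41 after 5-FU and 9.57% ± 0.87 without, and all 3 treated libraries again lay below all 3 untreated ones, with 8.85% next to 8.92%. That gap closed with another denominator. Of reads other than mitochondrially encoded ones, the members held 9.46% in 5-FU-treated LGR5- replicate 3 and 9.07% in untreated LGR5- replicate 1, while the LGR5+ groups stayed apart. Since these are shares of one sum, less RNA from these genes and more from others cannot be told apart, and in sorted bulk cells neither can fewer cells of a type and less RNA per cell.

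**Figure D1:**
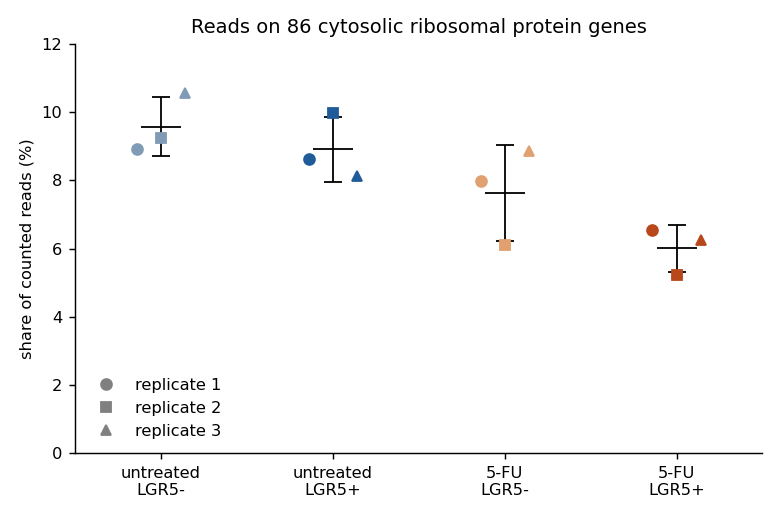
Share of counted reads on the 86 ribosomal protein genes (y axis, %) in each library, by group (x axis). Symbols are replicates, bars the mean ± SD of 3 libraries; the 5-FU-treated LGR5+ libraries lie at 5.24% to 6.54%, below the 8.14% to 9.97% of untreated LGR5+.

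Levels spanned more than the treatment moved them. By mean CPM over the 12 libraries, 27 members were at 1000 CPM or above, 48 between 100 and 1000, 5 between 1 and 100 and 6 under 1. Among the highest were Rpl13 (3171 CPM), Rpl7 (3160.2), Rps19 (3119) and Rplp0 (3103), the last a protein of the stalk that recruits translation factors. Per kilobase of principal transcript, the order was led by Rpl37a (5098 CPM per kb), Rpl41 (4849) and Rps27l (4319), whose ranges over the libraries overlapped. At the other end, Rpl10l, Rpl39l and Rps12l1 had no read in any library, Rps4l had reads in 2 libraries, and Rpl3l, the muscle paralog of Rpl3, lay at 0.165 to 0.807 CPM. These 5 did not pass the filter on low counts, which left 81 members to test among 16157 genes.

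In LGR5+ cells, members of both subunits were lower after 5-FU. Of the 81 tested members, 15 fell and 0 rose at an adjusted p under 0.05 (edgeR quasi-likelihood test, Benjamini-Hochberg over all genes tested), beside 6.37% of all tested genes called lower and 9.66% called higher. At an unadjusted p under 0.05, 42 members were lower, beside 13.9% of all tested genes, and 1, Rps27l, was higher, beside 16.1%. With a log2 fold change under -1.5 as well, the thresholds the study's methods give, 2 were left (Rpl22l1 and Rpl3), beside 2.81% of all tested genes. The median log2 fold change was -0.50 over the members and -0.02 over all tested genes, and 77 of the 81 values were negative. Large-subunit genes (11 of 50 fell, median -0.47) and small-subunit genes (4 of 31 fell, median -0.51) had like medians. All 3 treated libraries lay below all 3 untreated ones for 53 members, beside 20% of all tested genes, and above them for 1 member, beside 22.3%. Those that fell included Rpl3, Rpl5, Rpl6l, Rpl7a, Rpl10, Rpl10a, Rpl12, Rpl14, Rpl22l1, Rpl27a, Rpl28, Rps2, Rps9 and Rps20. The count moved with single libraries. It was 2 and 4 without 5-FU-treated LGR5+ replicates 2 and 3. It was 8, 4 and 9 without untreated LGR5+ replicates 1, 2 and 3. Calls over all genes fell as well in these fits, to 2.36%, 2.22%, 4.62%, 3.87% and 3.35% called lower, in that order. The members' median was -0.37 without 5-FU-treated LGR5+ replicate 2 and -0.59 without replicate 3. The count was 43 (42 lower, 1 higher) without the LGR5- replicate 3 libraries. These belong to neither group compared but share the fit, its filter and its scaling. Calls rose over all genes too in that fit, to 12.4% lower and 15.1% higher.

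In LGR5- cells, 10 members fell and 1 rose at an adjusted p under 0.05 (edgeR), beside 7.11% of all tested genes called lower and 8.3% called higher. All 10 were among the 15 that fell in LGR5+ cells, and make up 66.7% of those: Rpl3, Rpl5, Rpl7a, Rpl10, Rpl12, Rpl14, Rpl22l1, Rps2, Rps9 and Rps20. The member that rose was Rps27l. With an unadjusted p under 0.05 and a log2 fold change under -1.5, only Rpl22l1 was left, beside 2.75% of all tested genes. The median over the members was -0.38 on the log2 scale, beside -0.05 over all tested genes, and 74 of 81 values were negative. The median was -0.24 without 5-FU-treated LGR5- replicate 2. Treated libraries lay below all untreated ones for 29 members, beside 13.4% of all tested genes, and above them for Rps27l alone, beside 13.7%. The count of members past the threshold moved with single libraries here too. It was 4 and 2 without untreated replicates 1 and 2, and 4 and 4 without 5-FU-treated replicates 2 and 3. It was 2 in a fit of the LGR5- libraries alone. Over all genes the share called lower fell as well, to 4.02%, 4.41%, 3.96%, 3.68% and 3.52% in that order. The members' median without 5-FU-treated LGR5- replicate 3 was -0.46. In both fractions at once, the treated libraries lay below the untreated ones for 27 members, beside 9.2% of all tested genes. Fold changes were lower for longer transcripts: the 27 members of at most 732 bases had a median of -0.17 and the 27 of at least 1049 bases one of -0.43 in LGR5- cells. The same medians for the LGR5+ fraction were -0.34 and -0.55.

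**Figure D2:**
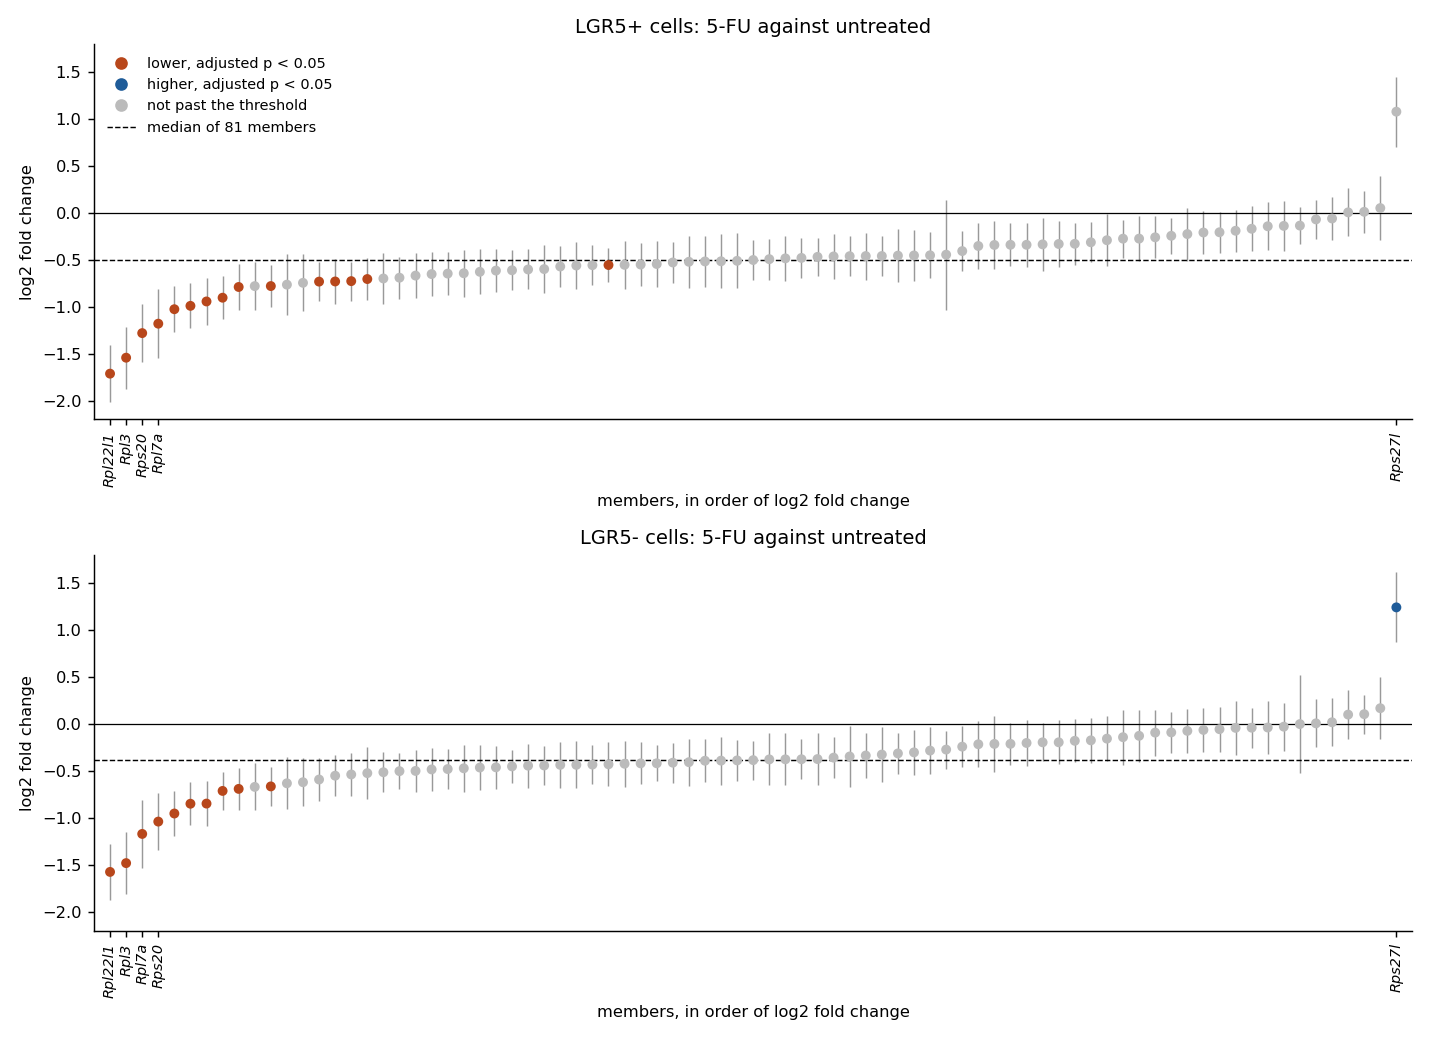
Log2 fold change after 5-FU (y axis) of each of the 81 tested members (x axis, in rising order, with the 5 that departed most named), in LGR5+ cells (upper panel) and LGR5- cells (lower panel). Points are edgeR estimates and bars their SE; orange marks members that fell, blue the 1 that rose, and the dashed lines the medians of -0.50 and -0.38. Rpl22l1 and Rpl3 stand at the low end and Rps27l alone at the high end of both panels.

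The members that departed most from the others are given with their values in every library. Rpl22l1 was, in CPM, at 36.7, 28.4 and 47.3 in untreated LGR5- cells, 28.8, 25.3 and 25.3 in untreated LGR5+ cells, 10.01, 7.55 and 20.4 in 5-FU-treated LGR5- cells and 9.28, 7.15 and 7.83 in 5-FU-treated LGR5+ cells (replicates 1 to 3). Every treated library was below every untreated one. The log2 fold change was -1.71 ± 0.31 (SE, adjusted p = 0.00155, edgeR) in LGR5+ and -1.57 ± 0.30 (adjusted p = 0.00313) in LGR5- cells, and it stayed past the threshold under all 16 alternatives in both. Rpl22l1 lies on chromosome 3, 28805436 to 28807424 (GENCODE M21, GRCm38). The antisense gene Gm33051, which has no counted reads, overlaps 28.8% of its transcript, and reads of the 2 cannot be told apart if strand was not used.

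Rpl3, a large-subunit protein that reaches towards the peptidyl transferase centre, was far more abundant and fell in both fractions too. It was, in CPM, at 1910.2, 1888 and 1432 in untreated LGR5- cells, 1806, 2271 and 1695 in untreated LGR5+ cells, 939.6, 529 and 410.4 in 5-FU-treated LGR5- cells and 953, 457 and 577 in 5-FU-treated LGR5+ cells. Treated and untreated libraries did not overlap in either fraction. The log2 fold change was -1.54 ± 0.33 (adjusted p = 0.00534, edgeR) in LGR5+ and -1.48 ± 0.33 (adjusted p = 0.00758) in LGR5- cells, past the threshold under all 16 alternatives. Of its 50-base stretches 85.6% also occur in other transcripts, and its main partner by sequence, the pseudogene Rpl3-ps1, moved likewise (-1.61 ± 0.37 in LGR5+ and -1.55 ± 0.37 in LGR5- cells), so the rows are not independent.

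Rps20, a protein of the head of the small subunit, was, in CPM, at 783, 891 and 844 in untreated LGR5- cells, 731, 879 and 628 in untreated LGR5+ cells, 519, 235 and 474 in 5-FU-treated LGR5- cells and 439, 219 and 265 in 5-FU-treated LGR5+ cells. The treated libraries were below the untreated ones in both fractions, with log2 fold changes of -1.28 ± 0.31 (adjusted p = 0.0105, edgeR) in LGR5+ and -1.04 ± 0.30 (adjusted p = 0.0327) in LGR5- cells. Of the 50-base stretches of its annotated transcript, which is 3706 bases long, 7.4% occur elsewhere. Rpl7a, a large-subunit protein, was, in CPM, at 133, 250.5 and 173 in untreated LGR5- cells, 69.2, 147 and 113 in untreated LGR5+ cells, 93.9, 110.5 and 43.7 in 5-FU-treated LGR5- cells and 60.9, 32.4 and 52.4 in 5-FU-treated LGR5+ cells. Treated and untreated libraries of a fraction did not overlap but lay close, 60.9 next to 69.2 CPM in LGR5+ and 110.5 next to 133 CPM in LGR5- cells, and the log2 fold changes were -1.18 ± 0.36 (adjusted p = 0.0405, edgeR) and -1.17 ± 0.36 (adjusted p = 0.0430). Of the 50-base stretches of Rpl7a, 81.2% also occur in transcripts of other genes. Under the 16 alternatives the threshold was missed 2 times for Rps20 and 5 times for Rpl7a in LGR5+ cells, and 6 and 8 times in LGR5- cells.

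Rps27l went the other way. It was, in CPM, at 1206, 1107 and 2042 in untreated LGR5- cells, 1291, 1222 and 1082 in untreated LGR5+ cells, 2068, 2628 and 5624 in 5-FU-treated LGR5- cells and 1823, 2262 and 3509.8 in 5-FU-treated LGR5+ cells. Every treated library was above every untreated one of its fraction, by the least in LGR5- cells, where 2068 CPM after treatment stood next to 2042 CPM in untreated replicate 3. The log2 fold change was 1.24 ± 0.37 (adjusted p = 0.0361, edgeR) in LGR5- and 1.08 ± 0.37 (adjusted p = 0.0629) in LGR5+ cells, so that only the first passed the threshold. In LGR5- cells it was 0.73 (adjusted p = 0.174, edgeR) without 5-FU-treated replicate 3, and did not pass either without untreated replicate 1 (adjusted p = 0.126) or 2 (adjusted p = 0.133). In LGR5+ cells it passed under 6 of 16 alternatives, with adjusted p from 0.00295 to 0.270. By CPM, Rps27l stood at places 10 to 35 among the members in untreated libraries and at places 1 to 9 in treated ones. Of its 50-base stretches 22.4% occur in other transcripts, which held few reads. It lies on chromosome 9, 66946086 to 66949516.

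**Figure D3:**
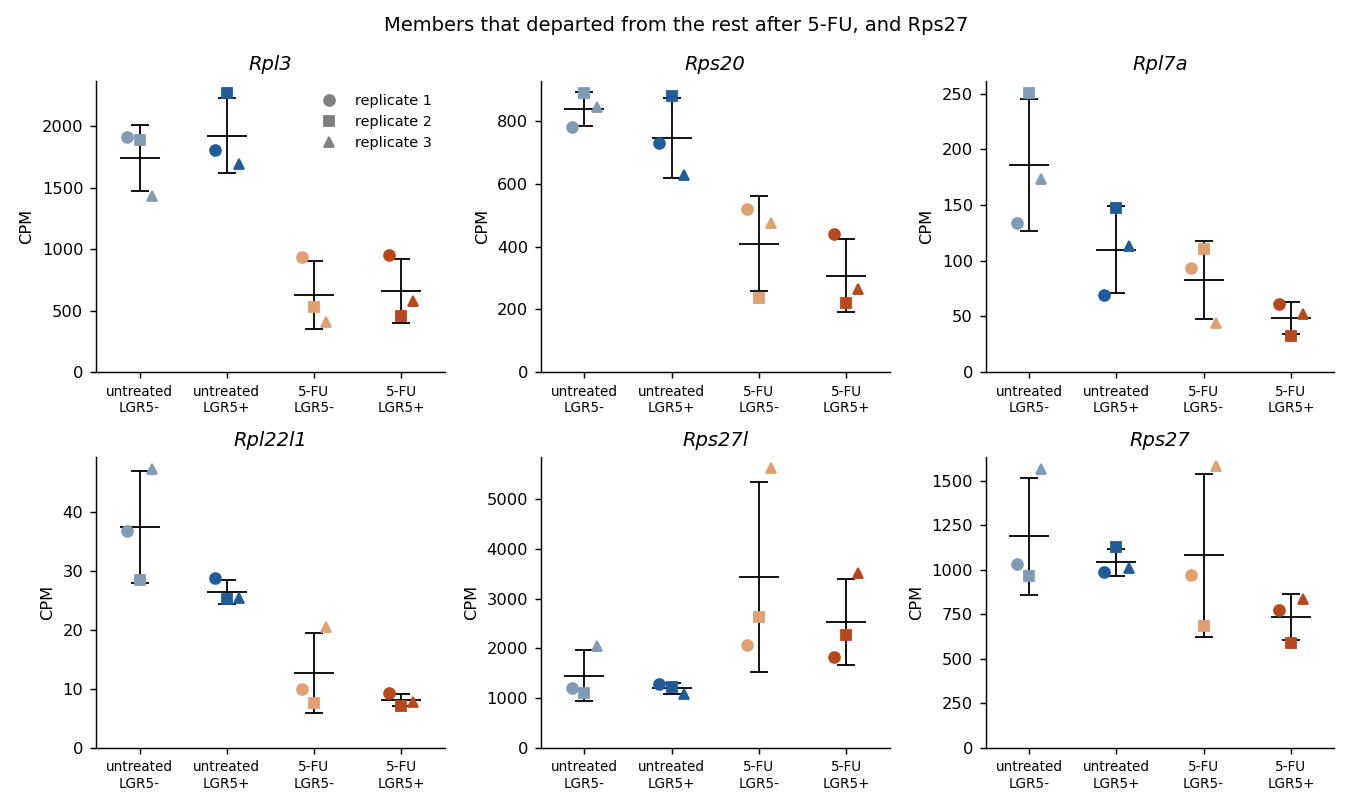
CPM (y axis, linear from 0) of 5 members that departed from the others after 5-FU and of Rps27, by group (x axis), each in its own panel. Symbols are replicates and bars the mean ± SD of 3 libraries; treated libraries lie below the untreated ones of their fraction for Rpl3, Rps20, Rpl7a and Rpl22l1 and above them for Rps27l.

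Paralogs were compared per kilobase of principal transcript, since they differ in length. The ratio of Rps27l to Rps27 was 0.806, 0.793 and 0.901 in untreated LGR5- cells, 0.903, 0.749 and 0.740 in untreated LGR5+ cells, 1.47, 2.65 and 2.45 in 5-FU-treated LGR5- cells and 1.62, 2.67 and 2.91 in 5-FU-treated LGR5+ cells. It was below 1 in all 6 untreated and above 1 in all 6 treated libraries. The side of 1 depends on the annotated lengths of 499 and 345 bases, since in CPM Rps27l stood above Rps27 in every library. Rps27 itself had log2 fold changes of -0.51 ± 0.29 (adjusted p = 0.271, edgeR) in LGR5+ and -0.14 ± 0.29 (adjusted p = 0.802) in LGR5- cells. The ratio of Rpl22l1 to Rpl22 was 0.653, 0.423 and 0.562 in untreated LGR5- cells, 0.525, 0.374 and 0.444 in untreated LGR5+ cells, 0.178, 0.198 and 0.275 in 5-FU-treated LGR5- cells and 0.212, 0.230 and 0.204 in 5-FU-treated LGR5+ cells, and treated and untreated libraries did not overlap. Rpl22 had log2 fold changes of -0.67 ± 0.24 (adjusted p = 0.0777) and -0.30 ± 0.24 (adjusted p = 0.455) in LGR5+ and LGR5- cells.

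The ratios of the other pairs with reads overlapped between treatments. Rpl36al to Rpl36a stood at 0.376 to 0.591 in untreated and 0.448 to 0.707 in treated libraries, and Rpl7l1, a relative of Rpl7, at 0.0156 to 0.0299 and 0.0212 to 0.0448 of Rpl7. Rpl36al (0.01 ± 0.26 in LGR5+ and 0.01 ± 0.26 in LGR5- cells) and Rpl7l1 (0.01 ± 0.23 and -0.39 ± 0.23) did not pass the test after 5-FU. For Rpl3l, Rpl10l, Rpl39l and Rps4l counts were too low to compare with Rpl3, Rpl10, Rpl39 and Rps4x.

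**Figure D4:**
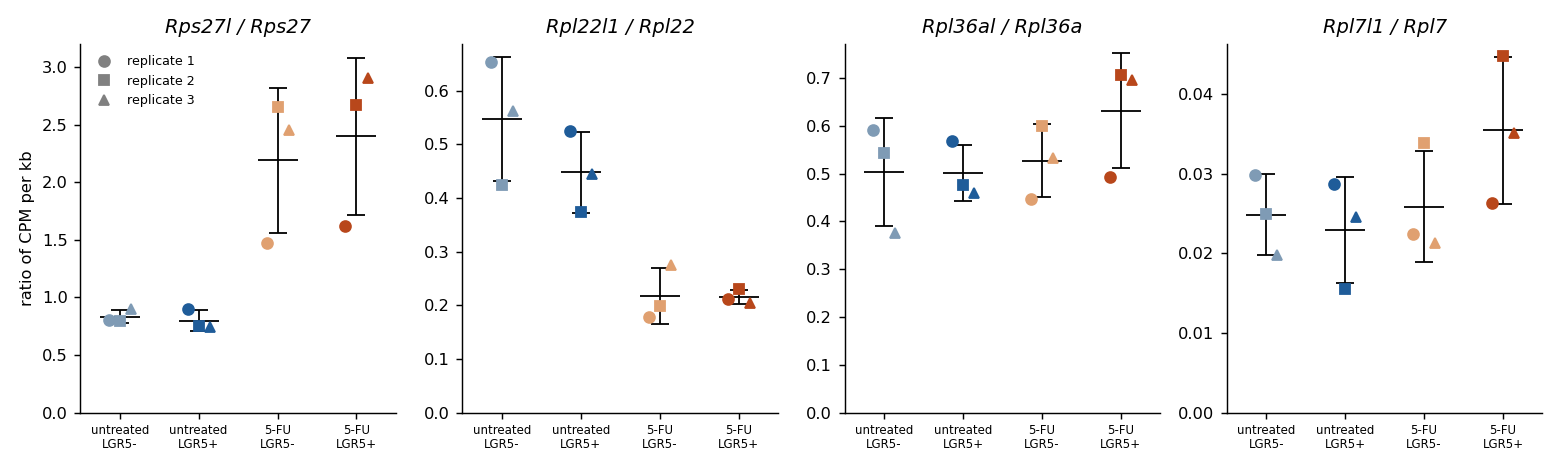
Ratio of CPM per kb (y axis, linear from 0) between paralogs in each library, by group (x axis). Symbols are replicates and bars the mean ± SD of 3 libraries. Rps27l to Rps27 is below 1 in the 6 untreated and above 1 in the 6 treated libraries, where the side of 1 depends on the annotated lengths. Rpl22l1 to Rpl22 is lower in treated than in untreated libraries.

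Among the members whose proteins bind MDM2, Rpl5 fell in both fractions, with log2 fold changes of -0.72 ± 0.21 (adjusted p = 0.0272, edgeR) in LGR5+ and -0.66 ± 0.21 (adjusted p = 0.0434) in LGR5- cells. Its levels were, in CPM, 1146, 1212 and 1048 in untreated LGR5- cells, 1054, 1138 and 844 in untreated LGR5+ cells, 786, 644 and 724 in 5-FU-treated LGR5- cells and 644, 498 and 697 in 5-FU-treated LGR5+ cells. Treated and untreated libraries of a fraction did not overlap, but the threshold was missed under 6 of 16 alternatives in LGR5+ and 9 of 16 in LGR5- cells. Rpl11, its partner in that complex, was at -0.47 ± 0.20 (adjusted p = 0.136) and -0.27 ± 0.20 (adjusted p = 0.418), Rpl23 at -0.33 ± 0.22 (adjusted p = 0.356) and -0.21 ± 0.22 (adjusted p = 0.585), and Rps3 at -0.50 ± 0.21 (adjusted p = 0.122) and -0.44 ± 0.21 (adjusted p = 0.182). None of these passed the threshold, although the treated libraries lay below the untreated ones for Rps3 in both fractions and for Rpl11 in LGR5+ cells. Of the 4 genes listed for this pathway, 2 rose in each fraction and 0 fell. Mdm2 was, in CPM, at 70.6, 48.4 and 65.6 in untreated LGR5- cells, 68.8, 61.2 and 62.7 in untreated LGR5+ cells, 158, 215 and 173 in 5-FU-treated LGR5- cells and 216, 251 and 258 in 5-FU-treated LGR5+ cells, with log2 fold changes of 1.91 ± 0.19 and 1.56 ± 0.19 (adjusted p = 1.7e-05 and 0.000123, edgeR, LGR5+ and LGR5- cells). Cdkn1a, the p53 target that arrests the cell cycle, changed by 1.72 ± 0.24 and 1.89 ± 0.25 (adjusted p = 0.000271 and 0.000182). Trp53 (0.26 ± 0.27 and -0.13 ± 0.27) and Mdm4 (-0.10 ± 0.41 and 0.09 ± 0.41) did not pass.

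The stalk proteins Rplp0, Rplp1 and Rplp2 lay nearer to no change than the median member in both fractions. Rplp0 was at -0.06 ± 0.23 in LGR5+ and -0.19 ± 0.23 in LGR5- cells, Rplp1 at -0.34 ± 0.24 and -0.07 ± 0.24, and Rplp2 at -0.27 ± 0.20 and -0.19 ± 0.20, and none passed the threshold. Rps6, the target of S6 kinases, was at -0.57 ± 0.22 and -0.55 ± 0.22 (adjusted p = 0.0974 and 0.115, edgeR), and Rpsa, also known as the laminin receptor, at -0.61 ± 0.23 and -0.46 ± 0.23 (adjusted p = 0.0857 and 0.204). For both, all treated libraries lay below the untreated ones in each fraction. The other members that fell in both fractions were Rps2 (-0.99 in LGR5+ and -0.95 in LGR5- cells), which lines the mRNA entry channel, Rpl12 (-1.02 and -0.84), at the base of the stalk, Rps9 (-0.90 and -0.84), Rpl10 (-0.78 and -0.69), which joins the large subunit late, and Rpl14 (-0.73 and -0.71). Their adjusted p-values (edgeR) ran from 0.0103 (Rpl12) to 0.0260 (Rpl10) in LGR5+ and from 0.0147 (Rps2) to 0.0474 (Rpl10) in LGR5- cells. Of 16 alternatives, the threshold was missed under 2 (Rps2 and Rpl12) to 6 (Rpl14) in LGR5+ and under 4 (Rpl12) to 9 (Rpl10) in LGR5- cells.

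Between the sorted fractions no member passed the test. In untreated cells 0 of 81 were called by edgeR and 0 by DESeq2, as were 0% of all genes by edgeR, and 0 had an unadjusted p under 0.05, beside 1.32% of all tested genes. The median log2 difference, LGR5+ minus LGR5-, was -0.15 over the members and -0.02 over all genes. It was -0.24 without untreated LGR5+ replicate 2, -0.05 without untreated LGR5+ replicate 3 and -0.10 without untreated LGR5- replicate 2. Libraries did not overlap for 10 members, all lower in LGR5+ cells (Rpl21, Rpl26, Rpl27, Rpl30, Rpl34, Rpl35, Rpl35a, Rpl37, Rpl38 and Rps21, named after their values were seen), beside 2.57% of all tested genes, and 0 members lay higher without overlap, beside 2.7%. After 5-FU again 0 members were called by edgeR and 0 by DESeq2, which gave 1 member no adjusted p, beside 0% of all genes by edgeR and 0.173% lower and 0.396% higher by DESeq2, and 6 had an unadjusted p under 0.05, all lower in LGR5+ cells, beside 5.55% of all tested genes. Libraries did not overlap for Rpl13a, Rpl24 and Rpl29, lower in LGR5+ cells, beside 10.2% of all tested genes, nor for Rpl7l1, higher in LGR5+ cells, beside 14.2%. Rpl24 alone had an unadjusted p under 0.05 with a log2 difference under -1.5, beside 1.35%. The median was -0.30 over the members and 0.03 over all genes. It was -0.46 without 5-FU-treated LGR5- replicate 2, -0.16 without 5-FU-treated LGR5- replicate 3, -0.18 without 5-FU-treated LGR5+ replicate 2 and -0.13 without both LGR5- replicate 3 libraries. Titles number the replicates, and with that number as a block the count after 5-FU stayed at 0. Within each of the 3 same-numbered pairs of 5-FU-treated libraries, the members' share of reads was lower in LGR5+ cells (6.54% beside 7.99%, 5.24% beside 6.10% and 6.26% beside 8.85%).

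Rpl24, Rpl29 and Rpl7a lay farthest below the other members in untreated LGR5+ against LGR5- cells, and so did Rpl24 after 5-FU. Rpl24 and Rpl29 rest on few reads. Rpl24 had 156 reads over the 12 libraries and was, in CPM, at 1.39, 0.603 and 1.33 in untreated LGR5- cells, 0.520, 0.307 and 0.717 in untreated LGR5+ cells, 1.24, 0.644 and 1.47 in 5-FU-treated LGR5- cells and 0.225, 0.440 and 0.468 in 5-FU-treated LGR5+ cells. Its difference between fractions was -1.09 ± 0.54 in untreated and -1.54 ± 0.56 in 5-FU-treated cells (adjusted p = 1 and 0.357, edgeR). The locus that GENCODE names Gm28037 covers 71.5% of its transcript on the same strand and has no counted reads. Rpl29 had 540 reads and was at -0.57 ± 0.34 in untreated and -0.69 ± 0.34 in 5-FU-treated cells (adjusted p = 1 and 0.393). Rpl7a was at -0.76 ± 0.36 and -0.77 ± 0.36 (adjusted p = 1 and 0.386). With the reads of sequence-sharing rows added, the untreated difference was -0.42 for Rpl24, -0.05 for Rpl29 and -0.53 for Rpl7a, and that of Rpl24 after 5-FU was -0.72. Rpl7a in untreated cells was at -0.48 without LGR5- replicate 2 and -0.50 without LGR5+ replicate 1.

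The 5-FU responses of the fractions were not shown to differ for any member. In the test of the difference, response of LGR5+ cells minus response of LGR5- cells, 0 of 81 members were called by edgeR and 0 by DESeq2, beside 0% of all genes, and 0 had an unadjusted p under 0.05, beside 1.57% of all tested genes. The value was negative for 74 members, with a median of -0.14 beside 0.04 over all genes. Without both LGR5- replicate 3 libraries the median was 0.01, with 42 positive and 39 negative values. With 1 library left out it was -0.30 without 5-FU-treated LGR5- replicate 2, -0.23 and -0.22 without LGR5+ replicate 3, untreated and 5-FU-treated, -0.06 and -0.02 without LGR5+ replicate 2, untreated and 5-FU-treated, and -0.03 without 5-FU-treated LGR5- replicate 3. The differences were -0.14 ± 0.42 for Rpl22l1, -0.06 ± 0.46 for Rpl3, -0.24 ± 0.43 for Rps20 and -0.17 ± 0.52 for Rps27l. Among the members farthest from the others were Rpl7l1 (0.40 ± 0.32), Rpl30 (0.37 ± 0.27), Rpl4 (0.18 ± 0.39) and Rpl21 (0.17 ± 0.27) above, and Rpl17 (-0.53 ± 0.43) and Rpl24 (-0.45 ± 0.78) below.

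Related lists were read from the same fit, in which 6.37% of all tested genes fell and 9.66% rose in LGR5+ cells, and 7.11% fell and 8.3% rose in LGR5- cells. The 5 subunit genes that the rule leaves out had medians of -0.54 in LGR5+ and -0.29 in LGR5- cells after 5-FU, with 0 called. Of 77 tested genes of the mitochondrial ribosome, which translates the mitochondrial genome, 1 fell (Mrps9) and 1 rose (Mrpl36) in each fraction, with medians of -0.02 and -0.03. Of 19 other tested transcripts with a TOP tract, among them the non-coding Gas5, 4 fell in LGR5+ and 5 in LGR5- cells and 0 rose, with medians of -0.60 and -0.55. Among them, Nap1l1, a histone chaperone, changed by -0.97 ± 0.23 and -0.79 ± 0.23 (adjusted p = 0.00999 and 0.0308, edgeR), and Npm1, the nucleolar protein nucleophosmin, by -0.82 ± 0.25 and -1.08 ± 0.25 (adjusted p = 0.0360 and 0.00943). Among genes at 100 CPM or more, the 75 members had medians of -0.51 and -0.38, and the 1727 other genes 0.09 and -0.02.

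Of 13 regulators of ribosomal protein synthesis, 1 rose and 1 fell in each fraction, shares near those of all tested genes given above. Eif4ebp1, the mTOR substrate that holds back cap-dependent translation, was, in CPM, at 162, 246 and 205 in untreated LGR5- cells, 169, 512 and 282 in untreated LGR5+ cells, 109, 83.6 and 87.4 in 5-FU-treated LGR5- cells and 105, 69.7 and 80.5 in 5-FU-treated LGR5+ cells and changed by -1.92 ± 0.33 and -1.13 ± 0.32 (adjusted p = 0.00111 and 0.0272, edgeR, LGR5+ and LGR5- cells). Mycn, at 0.833 to 1.59 CPM in untreated and 2.71 to 5.96 CPM in treated libraries, changed by 2.15 ± 0.34 and 1.58 ± 0.33 (adjusted p = 0.00058 and 0.00568). Myc (0.48 ± 0.22 and 0.28 ± 0.22) and Larp1, which binds TOP mRNAs (-0.15 ± 0.22 and -0.47 ± 0.22), did not pass the threshold.

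**Figure D5:**
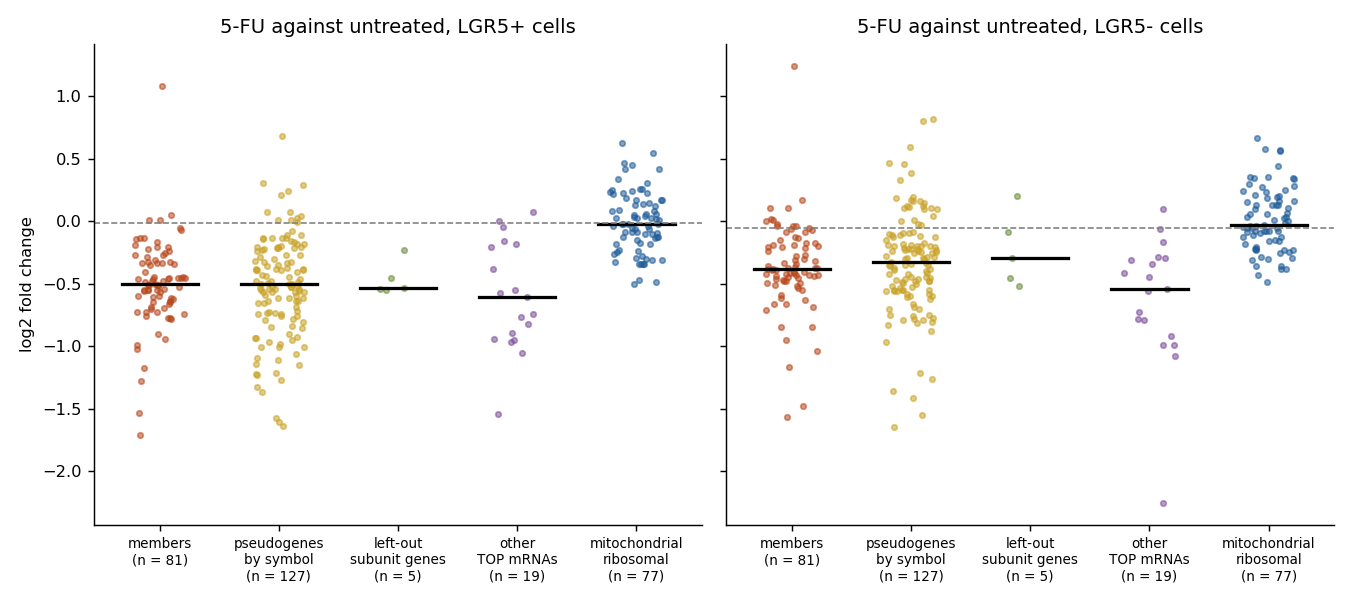
Log2 fold change after 5-FU (y axis) in LGR5+ cells (left) and LGR5- cells (right) of the tested members and of 4 lists of related genes (x axis). Points are genes, black bars medians, and the dashed line the median over all 16157 tested genes; the members, pseudogenes and other TOP mRNAs lie mostly below 0 and the mitochondrial ribosomal genes around it.

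Ribosomal protein genes have many processed copies in the genome, and 83 of the 86 members share at least one 50-base stretch with the transcript of another gene. For 34 members such stretches make up 50% or more of the principal transcript. Of 273 rows named as ribosomal protein pseudogenes 127 could be tested, and 11 fell in LGR5+ and 12 in LGR5- cells after 5-FU, with 0 higher and medians of -0.50 and -0.33. These counts stand beside 6.37% and 7.11% of all tested genes called lower. How multiply aligned reads were counted is not given in the sources used here, so members and their copies are uncertain as separate rows. With the reads of 360 sharing rows added to their closest member (10.7% of the members' own reads), 13 members fell in LGR5+ cells, and 10 fell and 1 rose in LGR5- cells. Rpl28 (adjusted p = 0.0517, edgeR) and Rpl6l (adjusted p = 0.0732) were the members no longer called in LGR5+ cells. Rpl29, with 540 reads alone and 42116 with its partners, then had log2 fold changes of -0.31 and -0.28 in LGR5+ and LGR5- cells, where it had 0.05 and 0.17 alone.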

How the data were processed

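RNA of sorted liver cancer organoid cells was sequenced in 12 libraries. The authors deposited raw read counts per gene. Per the labels, the submitters' processing notes name HISAT, HISAT2, TopHat2 and HTSeq and the build mm8, with no versions, and the handling of strand and of multiply aligned reads is not given in the sources used here. Positions and sequence sharing come from GENCODE M21 and RefSeq on GRCm38 and describe that annotation only. Of 47069 gene identifiers, 46488 had a symbol.

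Counts were tested with edgeR 4.0.16 in R 4.3.3 (limma 3.58.1, filterByExpr, TMM scaling, robust quasi-likelihood fit of all 12 libraries with 1 mean per group, Benjamini-Hochberg over 16157 genes). CPM uses the scaled library sizes. Members passing an adjusted p of 0.05, lying over 3 scaled median absolute deviations from the members' median (at most 5 a side), among the 5 highest or lowest by CPM, in paralog pairs, binding MDM2, or of the stalk (with Rps6, Rpsa and Rpl24) were named, except a few that are not reported here. Members and lists were chosen with earlier results of these data known, so no list was tested. The depth of 13750591 to 19323514 reads gives a floor of 3 reads, which covers counting error only. Other scalings, filters, DESeq2 1.42.0, left-out libraries and a replicate block were tried, and summing of sequence-sharing rows was added after seeing the data.

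Titles number the replicates. Deviations from the group means of same-numbered libraries correlated by over 0.1 in every pair (0.571, 0.217 and 0.304) only between LGR5+ and LGR5- cells after 5-FU, where the numbers were taken to pair the libraries.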

Additional observations from a re-analysis of the deposited data

How the results depend on the processing

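Of the members in LGR5+ cells after 5-FU, 15 passed the threshold. The count was 29 with library size as the only scaling, which moved the median of all genes to -0.10, and 34 with DESeq2. It was 31 in a fit of the LGR5+ libraries alone and 43 without both LGR5- replicate 3 libraries. With 1 library left out it was 2 to 14. In that order, shares of all genes called lower were 7.15%, 9.09%, 12.1%, 12.4% and 2.22% to 6.69%, beside 6.37% in the main fit. Those called higher were 7.73%, 11.5%, 14.6%, 15.1% and 6.01% to 8.24%, beside 9.66%. In LGR5- cells, where 11 passed, the count was 7 without a filter on low counts and 17 with DESeq2. It was 2 in a fit of the LGR5- libraries alone and 2 to 13 with 1 library left out. In that order, shares of all genes called lower were 3.58%, 9.05%, 3.52% and 3.68% to 9.88%, beside 7.11% in the main fit. Those called higher were 5%, 10.5%, 4.82% and 5.34% to 11%, beside 8.3%. With the replicate block the counts were 14 and 9, and 0 in the other comparisons, as without it. Medians over the members stayed below 0 with 1 library left out, between -0.59 and -0.37 in LGR5+ and between -0.46 and -0.24 in LGR5- cells after 5-FU, between -0.24 and -0.05 and between -0.46 and -0.16 for LGR5+ against LGR5- cells without and with 5-FU, and between -0.30 and -0.02 for the difference of the responses. Of 493 alternatives for single members, 372 stayed on the same side of the threshold, 115 lost it, 6 gained it (all Rps27l in LGR5+ cells) and 0 changed sign. The causes were not tested. Rpl24 (156 reads) and Rpl29 (540 reads) share 81.7% and 66.2% of their 50-base stretches with other transcripts, and the parts of depth and sharing in their low counts were not tested.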

Other observations

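The members' transcript length went with their level in a library-dependent way. Over the 81 tested members, the Spearman correlation of transcript length with the level relative to the member's own mean over the libraries was -0.55 in 5-FU-treated LGR5- replicate 3. It was 0.28 to 0.39 in 5 untreated libraries, -0.09 in untreated LGR5- replicate 3 and -0.20 to 0.12 in the other treated libraries. In 5-FU-treated LGR5- replicate 3 the 27 members of at most 732 bases had a median of 0.32 on the log2 scale, relative to all members, and the 27 of at least 1049 bases one of -0.27. These are descriptions over members of 1 library each, which share depth and preparation. Both LGR5- replicate 3 libraries also held the most mitochondrial reads, 6.93% and 6.44%, and their part in these values was not tested.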
